A study of Mus musculus with 16 samples.

Results

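The Rfx genes encode transcription factors that share a winged-helix DNA-binding domain and recognise the X-box, an inverted repeat whose arms are called half-sites. Several members switch on genes of the cilium, and others act in the endocrine pancreas, in brain patterning or in the expression of MHC class II genes. Described here are the loci of 7 of these genes, Rfx1 to Rfx7, in 3 lists of binding sites from mouse retina. The 7 were chosen by name from 21887 protein-coding genes in RefSeq's table for the mm10 assembly. A peak was assigned to a gene where it lay inside the gene or within 50 kb of either end.

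The peaks came from CUT&RUN, in which an antibody on chromatin of unfixed cells directs a nuclease to cut out the DNA beside its target. The tissue was pooled retina of CD-1 embryos (an outbred stock) at embryonic day 16, with about 300000 dissociated cells in each assay and no genetic change or treatment in any group. Antibodies to Foxn3 gave 4 libraries in 2 experiments, and antibodies to Foxn4 and Rfx3 gave 2 libraries each. Rabbit IgG served as control for Foxn3 (4 libraries) and Rfx3 (2), and mouse IgG for Foxn4 (2). Digestion lasted 1 h, or about 12 h for Foxn4 and mouse IgG, so antibody and digestion time cannot be told apart in any comparison with Foxn4.

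Each antibody has 1 deposited list, of 2794 peaks for Foxn3, 2956 for Foxn4 and 3981 for Rfx3. Replicates and IgG are not separate in these lists, so the values below have no spread between replicates and no test was made. Read depth is unknown. The authors' score for each peak has an unstated scale and is given as a rank, the percentage of peaks in the same list that score lower.

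The 7 loci fell into 3 kinds. Rfx1, Rfx2, Rfx3 and Rfx5 had a peak across their own transcription start. In the windows of Rfx4 and Rfx7 the only peaks lay at the start of a neighbouring gene. Rfx6 had no peak of any list. At the 4 promoters, Rfx1 carried all 3 factors, Rfx2 and Rfx3 carried Foxn3 and Rfx3, and Rfx5 carried Foxn3 alone.

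The promoters of the 4 genes are printed first because the peaks and the sequence features described below meet there. Each is the RefSeq promoter window of GRCm38.p6 (mm10), 250 bases before to 50 bases after the transcription start, written 5′ to 3′ in the direction of transcription. All 7 genes matched an entry in that table. Capitals mark the RFX half-site, GTTGCC or its variant GTTGCT, on either strand, where they appear as GGCAAC or AGCAAC. The windows are chr8:84066586-84066885 on the plus strand for Rfx1, chr17:56830959-56831258 on the minus strand for Rfx2, chr19:28011117-28011416 on the minus strand for Rfx3 and chr3:94953858-94954157 on the plus strand for Rfx5.
Rfx1: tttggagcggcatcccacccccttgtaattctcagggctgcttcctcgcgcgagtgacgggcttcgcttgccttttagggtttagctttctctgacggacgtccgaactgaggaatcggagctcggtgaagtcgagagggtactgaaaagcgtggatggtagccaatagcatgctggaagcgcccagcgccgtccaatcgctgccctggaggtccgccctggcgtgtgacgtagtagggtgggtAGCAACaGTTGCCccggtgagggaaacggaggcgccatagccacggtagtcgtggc
Rfx2: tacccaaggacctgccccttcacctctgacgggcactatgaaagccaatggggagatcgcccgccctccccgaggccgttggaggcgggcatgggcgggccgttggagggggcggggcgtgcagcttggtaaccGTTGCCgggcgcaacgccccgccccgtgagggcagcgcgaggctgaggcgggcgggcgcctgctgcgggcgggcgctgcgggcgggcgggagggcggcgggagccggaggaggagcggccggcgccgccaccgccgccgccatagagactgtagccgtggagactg
Rfx3: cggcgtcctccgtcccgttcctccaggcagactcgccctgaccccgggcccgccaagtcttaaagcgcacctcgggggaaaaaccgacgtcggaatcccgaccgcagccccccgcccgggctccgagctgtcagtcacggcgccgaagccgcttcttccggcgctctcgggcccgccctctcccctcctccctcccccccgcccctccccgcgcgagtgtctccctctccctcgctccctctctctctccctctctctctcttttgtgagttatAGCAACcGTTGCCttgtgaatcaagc
Rfx5: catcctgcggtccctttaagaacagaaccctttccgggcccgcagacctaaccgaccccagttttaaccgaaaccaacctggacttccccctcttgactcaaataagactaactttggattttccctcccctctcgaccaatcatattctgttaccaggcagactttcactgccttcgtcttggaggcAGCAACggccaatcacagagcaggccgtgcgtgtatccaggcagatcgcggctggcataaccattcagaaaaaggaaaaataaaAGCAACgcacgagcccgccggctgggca

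Over the whole windows, 6 of the 7 genes had a Foxn3 peak, 2 had a Foxn4 peak and 5 had an Rfx3 peak. Among all 21887 protein-coding genes the same rule found a Foxn3 peak at 27.4%, a Foxn4 peak at 19.9% and an Rfx3 peak at 33.0%. Long genes have wider windows, and the members ran from 10873 bp (Rfx5) to 252949 bp (Rfx3). Per 100 kb of window, Rfx2 had 1.93 Foxn3 and 1.93 Rfx3 peaks, a higher density than 96.8% and 94.6% of all genes. Rfx1 had 1.5 peaks per 100 kb in every list, above 93.0% of genes for Foxn3, 96.5% for Foxn4 and 89.9% for Rfx3. Rfx3, the longest, had 0.283 Foxn3 and 0.283 Rfx3 peaks per 100 kb, a higher density than 73.4% and 67.7% of genes but below the mean over all genes of 0.322 and 0.433. The median gene had none in any list.

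**Figure D1:**
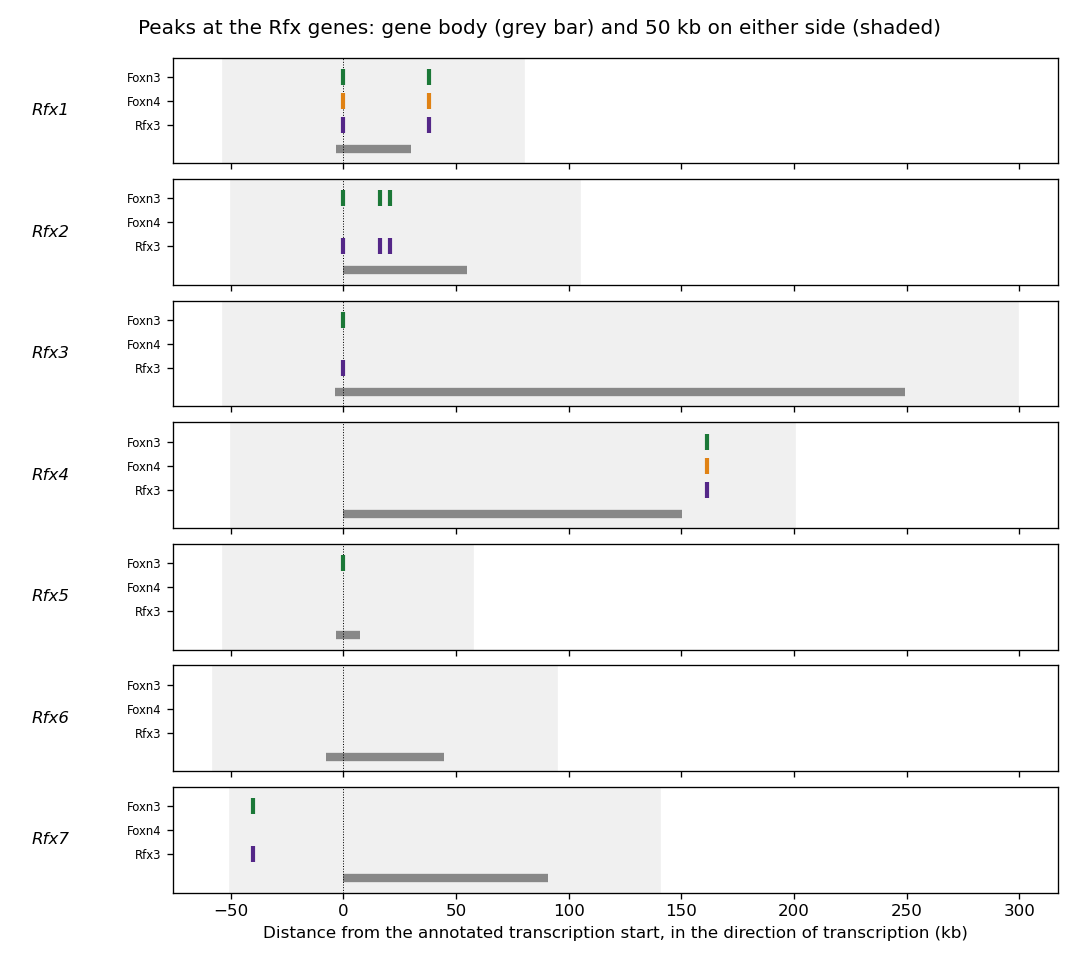
Position of every peak (coloured ticks at the midpoints, 1 row per list) relative to the annotated transcription start of each Rfx gene, in kb, on a common scale; for Rfx4 the first of its 2 starts is used. Peaks stand at the start (dotted line) of Rfx1, Rfx2, Rfx3 and Rfx5, Rfx2 has 2 further sites inside the gene, and Rfx6 has none.

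The windows held 20 peaks, 9 of Foxn3, 3 of Foxn4 and 8 of Rfx3. Of these, 19 overlapped a peak of another list by at least 1 bp, with a shared site counted in each of its lists. By list they were 8 of 9 Foxn3, 3 of 3 Foxn4 and 8 of 8 Rfx3 peaks. The exception was the Foxn3 peak at Rfx5. In the whole lists 89.5% of Foxn3, 44.0% of Foxn4 and 60.8% of Rfx3 peaks overlapped another list. Merged, the 20 peaks formed 9 regions: 3 with all factors, 5 with Foxn3 and Rfx3, and 1 with Foxn3 only. Across the series, 14.2%, 22.1% and 4.74% of 6155 merged regions were of these kinds. Regions with Foxn4 alone (26.9% of the series) or Rfx3 alone (25.3%) did not occur in the Rfx windows. These shares are not matched for position, as all regions except those inside Rfx2 lay on the promoter window of some gene. Sharing was common on promoter windows in general. Of 2155 promoter windows with an Rfx3 peak, 1518 also had a Foxn3 peak. Of 935 with a Foxn4 peak, 218 had no Rfx3 peak. The sharing is therefore not shown to be particular to the Rfx genes.

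Promoter binding was counted on the 300-base windows. Foxn3 peaks lay on the promoters of 4 of the 7 genes, against 9.03% of 17492 protein-coding genes that have such a window. Rfx3 peaks lay on 3 of 7, against 10.9%, and Foxn4 peaks on 1 of 7, against 4.84%. All lists met at 1 Rfx promoter (3.2% of all genes), Foxn3 and Rfx3 without Foxn4 at 2 (4.6%), Foxn3 alone at 1 (0.943%), and no peak lay on the promoters of the other 3 genes (87.1%). These counts are given as a description, without a test.

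These counts depend on where the start is placed. At Rfx1, Rfx3 and Rfx5 the RefSeq start lies 3272, 3503 and 3419 bp inside the outermost end of the gene in the gene table, while at Rfx2 it coincides with the end. Counting midpoints within 1 kb of a gene end therefore found only Rfx2, 1 gene in the Foxn3 list, 1 in the Rfx3 list and 0 in the Foxn4 list. The share of all genes under this end rule is not given. All 8 peaks on the 4 promoters span the start itself.

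Rfx1, a broadly expressed member known for binding X-boxes of viral and MHC class II promoters, had the highest-ranking promoter peaks of the family. The gene lies at chr8:84063564-84097001. Its Foxn3 peak (chr8:84066308-84067011, score 198) scored above 95.0% of the Foxn3 list. The Foxn4 peak (chr8:84066436-84066872, score 15.1) stood above 94.7% of its list and the Rfx3 peak (chr8:84066325-84067497, score 654) above 96.1%. The Rfx3 peak was 1173 bp wide, wider than 98.6% of that list. The midpoints of the Foxn3 and Foxn4 peaks lay 177 and 182 bp upstream of the start, and that of the Rfx3 peak 75 bp downstream. The stretch common to all lists was 437 bp, the whole Foxn4 peak. Rfx1 is the only member with a Foxn4 peak at its own promoter.

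Rfx2, a regulator of ciliary genes in multiciliated cells and spermatids, held the most sites. The gene lies at chr17:56775897-56831008 and is read from its right end. At the promoter the Foxn3 peak (chr17:56830896-56831441, score 27.1) ranked above 43.8% of its list and the Rfx3 peak (chr17:56830908-56831650, score 412) above 91.5%. Another site, 16381 bp into the gene by its Foxn3 midpoint, had a Foxn3 peak (chr17:56814349-56814906, score 353) above 98.5% of the list, number 42 of 2794 from the top. The Rfx3 peak there (chr17:56814355-56814950, score 766) stood above 97.0%. A further site 20553 bp into the gene had Foxn3 above 86.9% (chr17:56810205-56810706) and Rfx3 above 93.3% (chr17:56810216-56810734). In both lists the site at 16381 bp ranked highest and the promoter lowest. The midpoints of the 2 factors lay 25 and 20 bp apart at the sites inside the gene and 111 bp apart at the promoter. No exon map was used, and whether they fall in exons or introns was not examined. The nearest Foxn4 peak was 157544 bp from the Rfx2 start.

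Rfx3 encodes the factor that 1 of the antibodies was raised against, a regulator of primary and motile cilia that also acts in pancreatic islet development. The gene lies at chr19:27761721-28014669 and is read from its right end. A Foxn3 peak (chr19:28010991-28011271, score 57.0) and an Rfx3 peak (chr19:28010822-28011300, score 108) covered its start, above 74.0% and 63.0% of their lists. Their midpoints lay 35 and 105 bp downstream of the start. This was the only site in a window of 352949 bp, and the nearest Foxn4 peak was 568850 bp from the start. Rfx3 is thus listed with a peak of its own protein at its promoter, of middling rank and below the Rfx3 peaks at the promoters of Rfx1 and Rfx2.

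Rfx5, the DNA-binding subunit of the complex that acts on MHC class II promoters with Rfxap and Rfxank, differed from the other bound members in having Foxn3 without Rfx3. The gene lies at chr3:94950689-94961561. Its Foxn3 peak (chr3:94953669-94954174, score 33.6, 506 bp wide) scored above 53.8% of the list, with the midpoint 187 bp upstream of the start. The nearest Rfx3 peak lay 270321 bp from the start and the nearest Foxn4 peak 152710 bp. In the whole Foxn3 list 292 peaks (10.5%) overlapped neither other list.

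**Figure D2:**
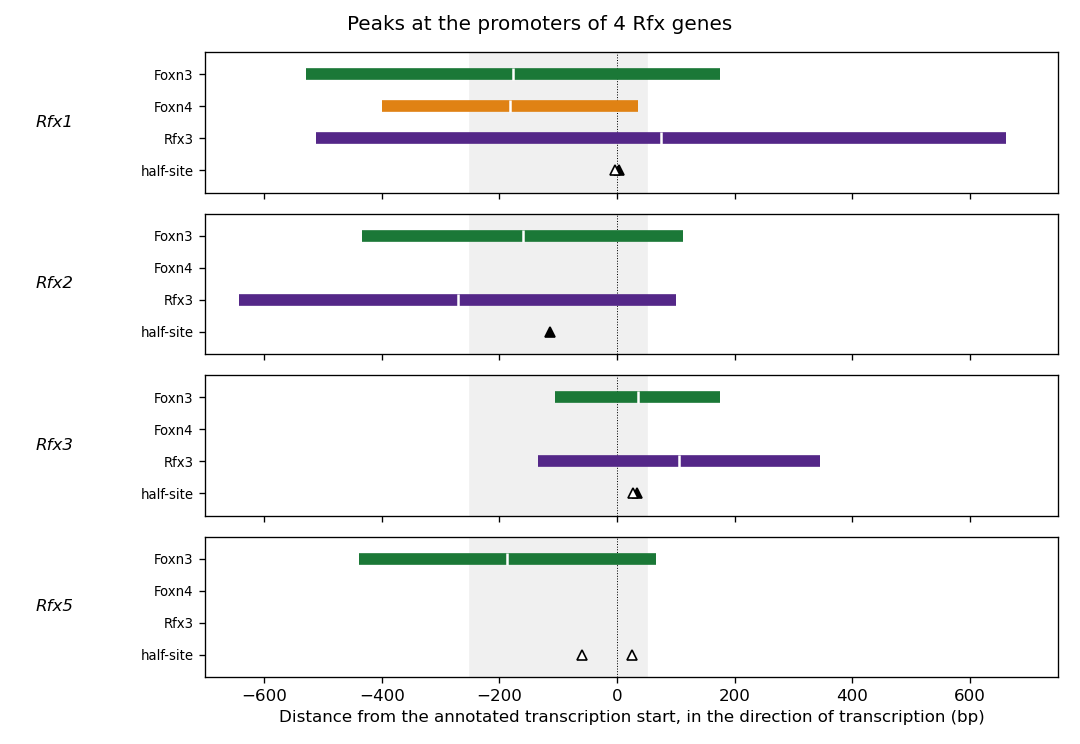
Peaks (bars, white tick at the midpoint) around the transcription start (dotted line) of the 4 bound Rfx genes, in bp in the direction of transcription; the shaded band is the RefSeq promoter window. Triangles mark half-sites inside that window, black for GTTGCC and white for GTTGCT; every one of them lies under a peak of each list that has a peak there.

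Rfx4, which acts in brain midline and ciliary development, has 2 annotated starts and neither carried a peak. The gene lies at chr10:84756036-84906538. Its window held 1 site with all factors, 10506 to 10526 bp past the gene's right end by the peak edges. By the peak midpoints it lay 351 to 377 bp from the start of Ric8b. That site ranked low in the Foxn3 list (above 26.7%) and the Rfx3 list (17.0%) and above 57.4% of the Foxn4 list. From the second Rfx4 start, the nearer one, the distance to the Rfx3 peak was 78896 bp.

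Rfx7, which like Rfx5 lacks the dimerisation domain of the other members, lies at chr9:72532169-72622949. Its window held 1 site with Foxn3 (chr9:72491908-72492125, above 35.8%) and Rfx3 (chr9:72491854-72492257, above 51.1%). The site was 40044 and 39912 bp from the gene by the peak edges. By the peak midpoints it was 57 and 96 bp from a start of Tex9. The nearest Foxn4 peak was 555873 bp from the Rfx7 start.

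Rfx6, required for endocrine cells of the pancreas, lies at chr10:51677760-51730429 and had no peak in its window. The nearest peaks to its start were 427353 bp (Foxn3), 140847 bp (Foxn4) and 427377 bp (Rfx3) away. For 64.9%, 33.7% and 70.6% of protein-coding genes with a promoter window a peak was nearer. An absent Foxn3 peak has a limit: 851 of the 3645 Foxn3 peak numbers are missing from the list. Between the listed peaks that flank the windows, 1 number is missing at Rfx6, 1 at Rfx7, 1 at Rfx3 and 3 at Rfx2, and 0 at Rfx1, Rfx4 and Rfx5. Where those numbers lay between the flanking peaks is not given.

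In the window of Rfx1, another site with every factor lay at the start of Dcaf15, 7237 to 7788 bp past the right end of Rfx1. It ranked above 78.5% (Foxn3), 89.1% (Foxn4) and 96.5% (Rfx3) of the lists. Of the 9 regions, 6 were thus nearest to the start of an Rfx gene, and those at Dcaf15, Ric8b and Tex9 were nearest to another gene.

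**Figure D3:**
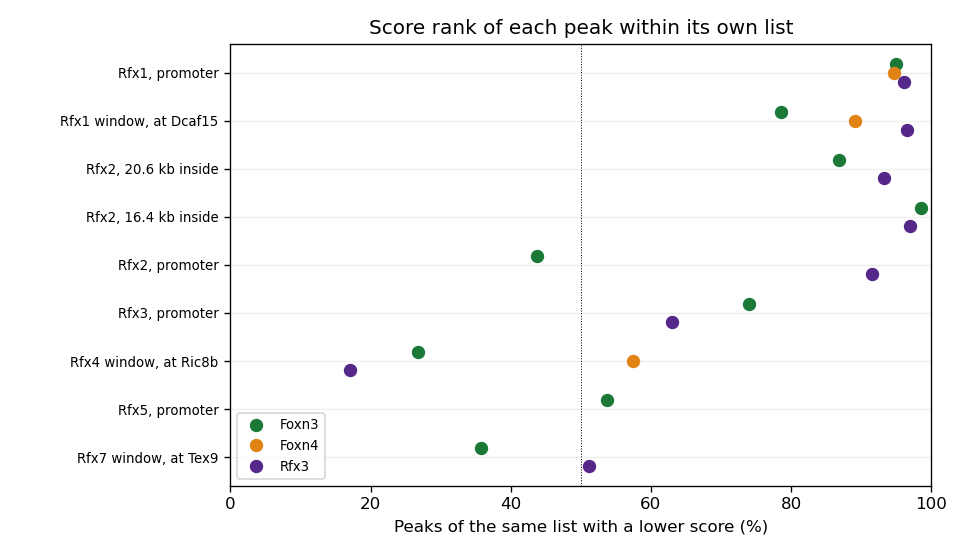
Score rank of each of the 20 peaks as the percentage of its own list with a lower score, 1 row per region and 1 colour per list; the dotted line is at 50. The Rfx1 promoter and the 2 sites inside Rfx2 lie at 86.9 or above in every list present, and the site at Ric8b is lowest.

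Ranks within a list can be set side by side at shared sites, but they have no common scale. The lists differ in make-up, as 10.5% of Foxn3 and 39.2% of Rfx3 peaks overlapped neither other list. A difference in rank is therefore not a difference in binding. Over the 9 Foxn3 peaks the rank ran from 26.7% to 98.5% with a median of 74.0%, and over the 8 Rfx3 peaks from 17.0% to 97.0% with a median of 92.4%. In all, 6 of 9 Foxn3 and 7 of 8 Rfx3 peaks stood at or above 50%, as 49.9% and 49.6% of the lists do. For the 8 sites with both factors the Rfx3 rank minus the Foxn3 rank ran from -11.0 points at the Rfx3 promoter to 47.7 points at the Rfx2 promoter. Over all 2265 such pairs the median difference was 2.26 points, with quartiles of -9.52 and 16.1. The Rfx2 promoter exceeded 97.5% of all pairs in this difference. The Rfx1 promoter (1.03 points) and the strongest site inside Rfx2 (-1.49 points) lay near the median.

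**Figure D4:**
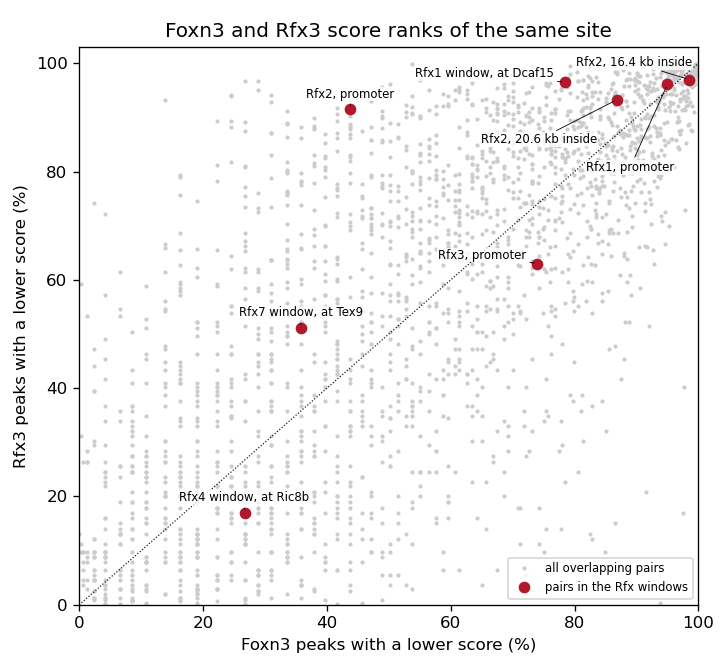
Foxn3 rank (horizontal axis) against Rfx3 rank (vertical axis) for all 2265 overlapping pairs of peaks (grey) and the 8 in the Rfx windows (red), both as the percentage of the list with a lower score; the dotted line marks equal ranks. The Rfx2 promoter stands far above the line, at 43.8 and 91.5.

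Sequence features of the promoters were counted by letters, on both strands, and a match describes the sequence and does not show a site in use. The half-site GTTGCC occurred in the windows of 4 members, Rfx1, Rfx2, Rfx3 and Rfx6, against 14.3% of the 17492 protein-coding genes with a window. GTTGCT occurred at 5 members, Rfx1, Rfx3, Rfx4, Rfx5 and Rfx6, against 16%. It was added after the sequences had been seen. Either form was present at 6 of 7 genes, against 27.4% of all genes. Genes can have several windows, 21263 in all, and the shares that follow count windows. GTTGCC was present in 12.6% of them. Among windows with both a Foxn3 and an Rfx3 peak the share was 28.4%, among those with Foxn3 but no Rfx3 peak in 14.2%, and among those without a peak in 11.0%. GTTGCT followed the same order, with 23.7% of windows with both peaks, 13.7% with Foxn3 but no Rfx3 peak and 13.1% without a peak. Among the members, the 3 promoters with an Rfx3 peak each hold GTTGCC, and Rfx1 and Rfx3 hold GTTGCT as well. Rfx5, with Foxn3 alone, holds only GTTGCT, at 2 places.

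Positions count from the transcription start, whose base is 1, with -1 before it. In Rfx3 the GTTGCC began at base 32, with the Foxn3 peak midpoint 1 bp and the Rfx3 midpoint 71 bp from its centre. In Rfx2 it began at base -116, 47 bp from the Foxn3 and 158 bp from the Rfx3 midpoint. In Rfx1 it began at base 2, 180 bp from the Foxn3, 185 bp from the Foxn4 and 72 bp from the Rfx3 midpoint.

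The same 3 promoters share a closer arrangement, noticed in the printed sequences and then counted. In Rfx1 and Rfx3, AGCAAC and GTTGCC stand back to back with 1 base between them, and in Rfx2 GGTAAC takes the place of AGCAAC. The letters common to them are AACNGTTGC (N for any base), or GCAACNGTT on the other strand. Rfx1, Rfx2 and Rfx3 hold it by definition, because the letters were taken from them, and the windows of the other 4 members do not. By gene it occurred at 98 of 17492 (0.56%), these 3 included. By window it occurred in 101 of 21263 (0.475%) and in 79 of 18710 without a peak (0.422%). Among windows with Foxn3 and Rfx3 peaks it occurred in 20 of 1518 (1.32%), again with these 3 included. Its letters overlap those of the half-sites counted above. The conventional X-box, with the arms facing each other, was searched as GTNNCC followed after 0 to 3 bases by GGNAAC. It was found in no member window, against 2.47% of all windows and 13.0% of those with Foxn3 and Rfx3 peaks. This search is narrow, as it does not accept AGCAAC as the second arm. In Rfx2 the GTTGCC is followed after 3 bases by CGCAAC, which misses GGNAAC by 1 base. Looser facing arms of this kind were not counted.

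**Figure D5:**
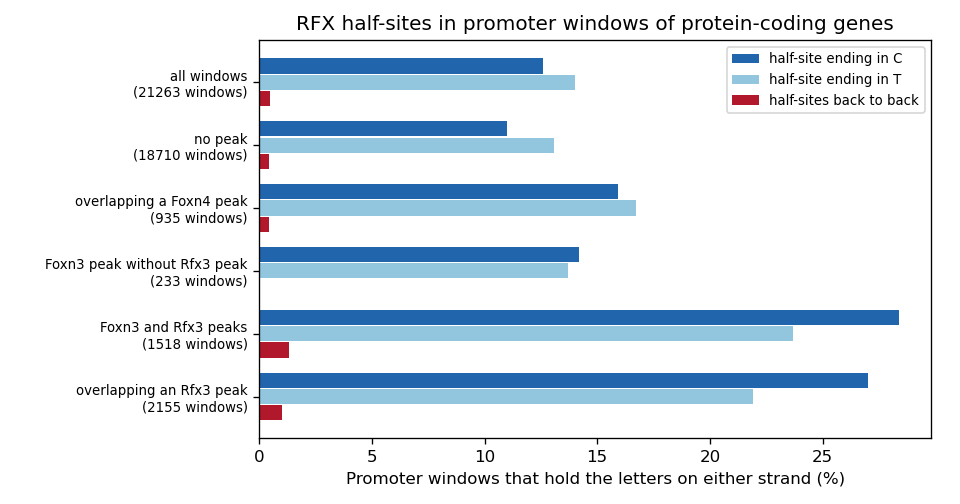
Share of 300-base promoter windows that hold each RFX half-site form, in percent, by the peaks that overlap the window; the form ending in C is GTTGCC, the form ending in T is GTTGCT. Windows with Foxn3 and Rfx3 peaks hold the first form in 28.4%, against 12.6% of all windows; the back-to-back form stays at or below 1.32%.

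Foxn3 is known to read both a forkhead motif and a forkhead-like motif, and Foxn4 the forkhead-like motif. The forkhead letters TGTTTA occurred at no member, against 13.2% of all genes with a window. A count of 0 in 7 genes cannot be told from that share. By window TGTTTA occurred in 11.5% of all windows, 7.31% of those with a Foxn3 peak and 12.1% of those without a peak. The forkhead-like letters GACGC occurred at 3 members, Rfx3, Rfx4 and Rfx7, against 36.3% of genes. Counted by window, they occurred in 33.4% of all windows and 57.5% of those with a Foxn3 peak. The match at Rfx3 lay outside both of its peaks, so none of the 4 bound Rfx promoters held these letters under a peak within the window.

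Half-sites did not go with a peak everywhere. The Rfx6 window, chr10:51685268-51685567 on the plus strand, is shown as the contrast, because it holds 3 half-sites and no peak.
Rfx6: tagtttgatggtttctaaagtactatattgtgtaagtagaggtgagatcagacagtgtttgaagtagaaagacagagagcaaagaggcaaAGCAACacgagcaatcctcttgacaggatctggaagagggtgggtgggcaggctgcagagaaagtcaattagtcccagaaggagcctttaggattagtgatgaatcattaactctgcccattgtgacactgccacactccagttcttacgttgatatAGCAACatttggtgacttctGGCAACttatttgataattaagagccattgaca

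Base composition varied widely among the 4 windows without a peak. The Rfx6 window had 42.3% G and C with 2 CpG dinucleotides, and the second Rfx4 window 42.0% with 3. The first Rfx4 window had 57.0% with 20, inside the range of the bound windows. The Rfx7 window had 84.7% with 53, a higher G and C content than 99.8% of windows, and no half-site. The bound windows had 60.3% (Rfx1), 75.7% (Rfx2), 68.0% (Rfx3) and 53.0% (Rfx5), with 16 to 38 CpG dinucleotides. The median was 56.3% with 13 over all windows and 61.7% with 22 over windows with an Rfx3 peak.

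Related genes were counted in the same way, with no test between lists. Of 7 partner genes (Rfx8, the RFX complex subunits Rfxap and Rfxank, the coactivator Ciita, and the NF-Y subunits Nfya, Nfyb and Nfyc), 5 matched a promoter window. Among these 5, only Nfya had a peak there, of every list, above 22.2% (Foxn3), 81.1% (Foxn4) and 24.5% (Rfx3). Rfx8 is another Rfx family gene, outside the 7, and had no peak on its window. Of the 6 Foxn and Foxr genes, 5 matched a window and 0 had a promoter peak. Of 8 regulators of multiciliation, 5 matched and 1, Ccno, had promoter peaks, Foxn3 above 87.5% and Rfx3 above 75.4%. Promoter peaks of any list were thus found at 4 of 7 Rfx genes, 1 of 5 partner genes, 0 of 5 Foxn and Foxr genes and 1 of 5 multiciliation genes with a window, against 12.9% of all 17492 genes with a window. Counts of 0 or 1 in 5 genes cannot be told from that share. Over the gene body and 50 kb, where the comparison genes were counted without names, Foxn3, Foxn4 and Rfx3 peaks were found at 1, 1 and 2 of the 7 partner genes. They were found at 5, 2 and 4 of the 6 Foxn and Foxr genes and at 5, 1 and 5 of the 8 multiciliation genes. For the 7 Rfx genes these counts were 6, 2 and 5, and for all protein-coding genes the shares were 27.4%, 19.9% and 33.0%.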

How the data were processed

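Peaks were measured by CUT&RUN in mouse retina, 1 deposited list per antibody. The submitters' processing notes name cutadapt, Bowtie2, UMI-tools, bedtools, SEACR and the mm10 build, without versions, roles or settings. The score in the deposited lists is the authors' value per peak, of unstated scale, and was used only to rank peaks within a list. Which libraries entered a list, and how IgG was used, is not given in the sources used here. Depth is unknown, so no interval is given.

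Genes and 300-base promoter windows came from RefSeq tables of GRCm38.p6, the assembly of mm10. Coordinates count from 1. Promoter strand and position were checked on 817 pairs of overlapping windows on opposite strands, and the bases matched in 817. Ranks are the percentage of a list with a strictly lower score. Lists were compared by overlap of at least 1 bp. No gene or genome sequence beyond the promoter windows was used. The counting functions were tested on simulated data. Analyses used Python 3.11.15 with pandas 2.3.3.

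The members, comparison lists and rules were chosen with earlier results of these data known. The rule for named genes was all 7 members. Where comparison lists gave 5 or fewer genes with a promoter peak, those were named too, with Dcaf15, Ric8b and Tex9 as the genes nearest to peaks. Their counts over the gene body and 50 kb were given without names. Alternatives were other windows, score limits and overlaps.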

Additional observations from a re-analysis of the deposited data

How the results depend on the processing

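Over 66 alternative counts, 49 stayed within 1.5 times the reported value and 17 did not. With the gene body only, the Foxn4 list gave 1 gene, 1 peak and 1 shared peak, the Rfx3 list 3 genes, 5 peaks and 5 shared peaks, and the Foxn3 list 5 shared peaks. With 10 kb instead of 50 kb, Foxn4 gave 1 gene and Rfx3 gave 3, and with 100 kb Foxn4 gave 5 peaks. The Foxn3 gene count fell from 6 to 4 with 10 kb, with the gene body only, and with peaks at or above the median score. Foxn3 peaks fell from 9 to 6 with the gene body only and with that score limit. These Foxn3 changes sit exactly at the limit of 1.5 times and were counted as within it. Midpoints within 1 kb of a gene end left 1 gene for Foxn3, 0 for Foxn4 and 1 for Rfx3; within 5 kb these became 4, 1 and 3. Peaks at or above the list's median score left 5 shared Foxn3 peaks. Fewer or more positions are counted in each case by construction. Shares over all genes are not given for these alternatives, so the counts describe the Rfx genes only and cannot be set against the genome. Requiring overlap of at least 0.5 of the shorter peak, or allowing 500 bp between peaks, changed no count of shared peaks. Widening the promoter window by 500 bp changed no promoter count, and keeping peaks at or above the median score removed the Rfx2 promoter from the Foxn3 list only (3 of 7 left); these 2 alternatives were chosen after seeing the data. No paired analysis was possible because each antibody has a single list. Read depth, replicate spread and IgG background limit every value and cannot be read from the lists.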

Other observations

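Beyond the 50 kb rule, 3 further sites lay within 100 kb of an Rfx gene, the nearest of them 90496 bp away. At the start of Mns1, a gene of motile cilia and sperm flagella, a Foxn3 peak above 84.8% of its list and an Rfx3 peak above 77.3% lay 93485 and 93585 bp from Rfx7. At the start of Prkaca, the catalytic subunit of protein kinase A, all lists had a peak 90496 to 90543 bp from Rfx1, above 10.8% (Foxn3), 29.3% (Foxn4) and 7.91% (Rfx3). A Foxn4 peak without the other factors lay 95936 bp from Rfx6, above 29.3% of its list. The farthest site inside the rule was the one at Tex9, 40044 bp from Rfx7.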
